A study of Rattus norvegicus with 15 samples.

Results

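The 9 genes described here code for proteins of megakaryocytes and platelets, and they were taken by symbol from the genes of the deposited expression table: Gp1ba, Gp1bb, Gp9, Gp6, Itga2b, Itgb3, Pf4, Ppbp and Vwf. Each symbol matched 1 entry, so they make up 9 of 22468 genes, and all 9 were abundant enough to be tested. The study sequenced poly(A) RNA of bone in 15 libraries from female rats of the Sprague-Dawley strain, with 5 groups of 3 libraries. Rats of the SYT, YJT and YJZYT groups were ovariectomized, and the labels give their conditions only by these names. Model rats were ovariectomized and are labelled with osteoporosis, and removal of the ovaries ends the main supply of oestrogen. Blank rats carry the treatment label "none", so that ovariectomy is shared by every group except Blank and no sham operation is named. The series title is about Zhuanggu Zhitong Capsule, a Chinese herbal medicine, but the labels tie the capsule to no single group and give no dose, age, bone or time. A library is named by its group and replicate number, as in Model2. The labels do not say that replicates came from separate animals, so each p-value speaks only of the spread between these libraries, part or all of which may be technical.

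Megakaryocytes are the large marrow cells that shed platelets into the blood, and bone collected with its marrow holds both. Platelets catch on damaged vessel walls through a receptor complex built from the products of Gp1ba, Gp1bb and Gp9, which grips von Willebrand factor, the product of Vwf. Gp6 codes for a collagen receptor that activates the platelet, and Itga2b and Itgb3 code for the 2 chains of the fibrinogen receptor that ties platelets together. Pf4 and Ppbp code for chemokines packed into platelet alpha granules and released on activation. Not every one of these genes belongs to the lineage alone. Endothelial cells also make von Willebrand factor, and the Itgb3 chain pairs with the Itgav chain in osteoclasts and endothelial cells. Transcription factors of the GATA and ETS families, among them Gata1 and Fli1, are known regulators of megakaryocyte genes.

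The sequence ahead of the start sites was read for words that such factors can bind. RefSeq promoters of the rat assembly GRCr8, running from 250 bases before to 50 bases after the start, were matched for 6 of the 9 genes: Gp1ba, Gp1bb, Gp9, Gp6, Itga2b and Ppbp. Words were searched on both strands: for GATA the word AGATAA and its variant TGATAA, and with a last G the word AGATAG and its variant TGATAG, and for ETS the word AGGAAG or, with a first C, the word CGGAAG. No GATA word overlapped an ETS word in these promoters. Shown are the promoter with the most GATA words, one with ETS words alone, one in which an ETS and a GATA word touch, and one with neither, and capitals mark the words.
Gp1ba: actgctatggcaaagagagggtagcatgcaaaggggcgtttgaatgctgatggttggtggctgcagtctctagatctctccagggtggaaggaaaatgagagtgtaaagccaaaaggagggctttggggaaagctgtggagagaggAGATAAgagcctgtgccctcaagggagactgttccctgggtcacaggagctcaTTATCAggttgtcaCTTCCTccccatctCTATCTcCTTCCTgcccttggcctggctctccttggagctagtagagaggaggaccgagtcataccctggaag
Gp9: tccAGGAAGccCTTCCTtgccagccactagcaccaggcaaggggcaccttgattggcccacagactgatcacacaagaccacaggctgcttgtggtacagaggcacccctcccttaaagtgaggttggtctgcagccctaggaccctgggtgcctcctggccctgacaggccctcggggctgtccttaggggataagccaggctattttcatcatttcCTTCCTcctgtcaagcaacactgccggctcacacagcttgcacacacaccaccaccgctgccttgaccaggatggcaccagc
Gp6: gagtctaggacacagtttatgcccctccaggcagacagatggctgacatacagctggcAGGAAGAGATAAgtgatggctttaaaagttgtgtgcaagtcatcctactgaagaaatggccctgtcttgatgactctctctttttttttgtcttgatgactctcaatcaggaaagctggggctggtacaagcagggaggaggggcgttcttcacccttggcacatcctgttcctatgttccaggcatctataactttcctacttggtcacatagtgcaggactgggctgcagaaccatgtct
Ppbp: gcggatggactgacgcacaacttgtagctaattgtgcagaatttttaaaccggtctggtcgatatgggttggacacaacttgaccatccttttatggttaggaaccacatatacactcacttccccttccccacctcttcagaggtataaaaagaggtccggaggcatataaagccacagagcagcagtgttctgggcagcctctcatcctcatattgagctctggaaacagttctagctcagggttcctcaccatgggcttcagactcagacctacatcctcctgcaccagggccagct

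These windows lie on GRCr8 at chr10:55851309-55851608 (plus strand) for Gp1ba, chr4:121792592-121792891 (plus) for Gp9, chr1:78508258-78508557 (plus) for Gp6 and chr14:17587250-17587549 (minus) for Ppbp. Gp1ba held 3 GATA and 2 ETS words, all within 104 bases of the start. Gp6 held 1 ETS word starting at -192 and 1 GATA word at -186, and Gp9 held 3 ETS words. Itga2b held 1 GATA word and 3 ETS words, and Gp1bb held 2 GATA words and 1 ETS word. The 6 promoters include that of Gp1bb, which did not follow the other genes within groups, and not that of Pf4. In all, 4 of the 6 promoters held a GATA word, 5 held an ETS word and 4 held both. Of 33469 RefSeq promoters of the same length, 30.3% held a GATA word, 45.5% an ETS word and 12.9% both. A match is a description of the letters and not a binding site, and the absence of these words in the Ppbp window says nothing about either factor.

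Library totals ran from 64472700 to 74255667 counts, and the lowest count of any of the 9 genes in any library was 20, for Gp1bb in SYT2. YJT3 and YJZYT3 stood apart from the other 13 libraries in bone matrix RNA. Col1a1, the main collagen of bone, was at 341 FPKM in YJT3 and 337 FPKM in YJZYT3, against 1524 to 10571 FPKM in the others. None of the 8 matched osteoblast genes, the 11 osteoclast genes or the 42 further megakaryocyte and platelet genes was at 0 in any library. FPKM, the unit of all levels given here, is the number of fragments per kilobase of transcript, scaled to the size of the library. The median of each comparison that uses these libraries is given with and without them. In a bulk sample, fewer megakaryocytes and less RNA per megakaryocyte cannot be told apart.

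Levels of the von Willebrand receptor genes spanned a wide range. Gp1ba, the chain that grips the ligand (chr10:57260680-57263546, plus strand, in the file's coordinates, whose build is not given), was at 1.43, 6.49 and 1.22 FPKM in SYT. It was at 3.70, 8.19 and 23.0 FPKM in YJT, 6.69, 7.98 and 16.4 FPKM in YJZYT, 26.0, 3.60 and 4.35 FPKM in Model, and 29.1, 9.54 and 22.1 FPKM in Blank. Every SYT library lay below every Blank library, while the 3 Model libraries spanned nearly the whole range, with Model1 close to the highest Blank library and Model2 and Model3 among the low ones. Gp9, the small chain needed to bring the complex to the cell surface (chr4:119680112-119682547, plus), followed the same order. It was at 1.58, 7.57 and 1.60 FPKM in SYT, 5.82, 11.8 and 29.7 FPKM in YJT, 9.34, 10.9 and 22.5 FPKM in YJZYT, 28.7, 5.18 and 5.93 FPKM in Model and 29.9, 15.1 and 25.7 FPKM in Blank. For Gp9 also, SYT did not overlap with Blank, SYT1 and SYT3 were the lowest libraries of all, and Model1, YJT3 and YJZYT3 were far above the other libraries of their groups.

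Gp6, the collagen receptor (chr1:73040901-73064641, plus), was at 3.37, 9.38 and 1.70 FPKM in SYT, 6.72, 15.2 and 33.3 FPKM in YJT, and 9.79, 13.7 and 32.4 FPKM in YJZYT. It was at 36.1, 10.1 and 7.66 FPKM in Model and 37.5, 18.7 and 28.2 FPKM in Blank. SYT2 was the highest SYT library for this gene as for Gp1ba and Gp9, yet it remained under the lowest Blank and the lowest YJZYT library.

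The fibrinogen receptor chains behaved less alike. Itga2b (chr10:90398132-90415070, minus) was at 10.6, 19.1 and 4.95 FPKM in SYT, 17.3, 24.9 and 62.0 FPKM in YJT, 22.3, 23.4 and 49.9 FPKM in YJZYT, 85.0, 11.3 and 12.7 FPKM in Model, and 104.8, 33.9 and 75.7 FPKM in Blank. The low SYT libraries and the split of Model into 1 high and 2 low libraries were as for the receptor genes above. Itgb3 (chr10:92667869-92783410, plus) was at 9.99, 36.9 and 38.5 FPKM in SYT, 24.6, 14.6 and 58.1 FPKM in YJT, and 38.0, 35.1 and 29.5 FPKM in YJZYT. It was at 132.6, 11.5 and 53.1 FPKM in Model and 142.6, 46.4 and 110.9 FPKM in Blank. Here SYT3, the library with the least Itga2b, was the highest of its group, YJZYT3 was the lowest of its group, and Model3 lay well above Model2.

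Of the granule genes, Pf4 (chr14:18848549-18849258, minus) had the highest level of the 9 genes, with a median of 444 FPKM over the 15 libraries. It was at 126, 327 and 103 FPKM in SYT, 245, 531 and 1048 FPKM in YJT, 356, 444 and 1128 FPKM in YJZYT, 950.5, 267 and 284 FPKM in Model, and 1053, 555 and 791 FPKM in Blank. SYT did not overlap with Blank or with YJZYT, and Model was again split between 1 library at the Blank level and 2 below it. Ppbp, the neighbour of Pf4 on chromosome 14 (chr14:18851954-18853315, minus), was at 22.3, 67.9 and 12.97 FPKM in SYT, 40.5, 87.4 and 289.9 FPKM in YJT, and 78.3, 145 and 241 FPKM in YJZYT. It was at 341, 55.2 and 53.4 FPKM in Model and 403, 179 and 264 FPKM in Blank. Of the 9 genes Ppbp had the second widest range, 31.1-fold between SYT3 and Blank1, against 10.9-fold for Pf4.

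Vwf (chr4:158088505-158219523, plus) varied least, 10.07-fold between SYT1 and Blank1. It was at 1.78, 5.69 and 4.71 FPKM in SYT, 4.96, 5.89 and 14.4 FPKM in YJT, 5.68, 4.81 and 10.3 FPKM in YJZYT, 16.8, 3.21 and 4.92 FPKM in Model and 17.9, 8.24 and 14.8 FPKM in Blank. SYT and Blank did not overlap, and SYT3, the lowest library for 5 of the other genes, was not low in its group for Vwf. Gp1bb, the chain that links the ligand-binding chain to Gp9, had the lowest median level, 2.29 FPKM. It was at 0.595, 0.271 and 0.493 FPKM in SYT, 1.44, 8.53 and 1.24 FPKM in YJT, 4.40, 8.63 and 25.8 FPKM in YJZYT, 1.52, 2.54 and 1.76 FPKM in Model and 2.29, 10.9 and 14.8 FPKM in Blank. Its order of libraries was unlike that of the other 8 genes: Model1 and YJT3, high for those, were the lowest libraries of their groups, and SYT2 was the lowest of all.

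**Figure D1:**
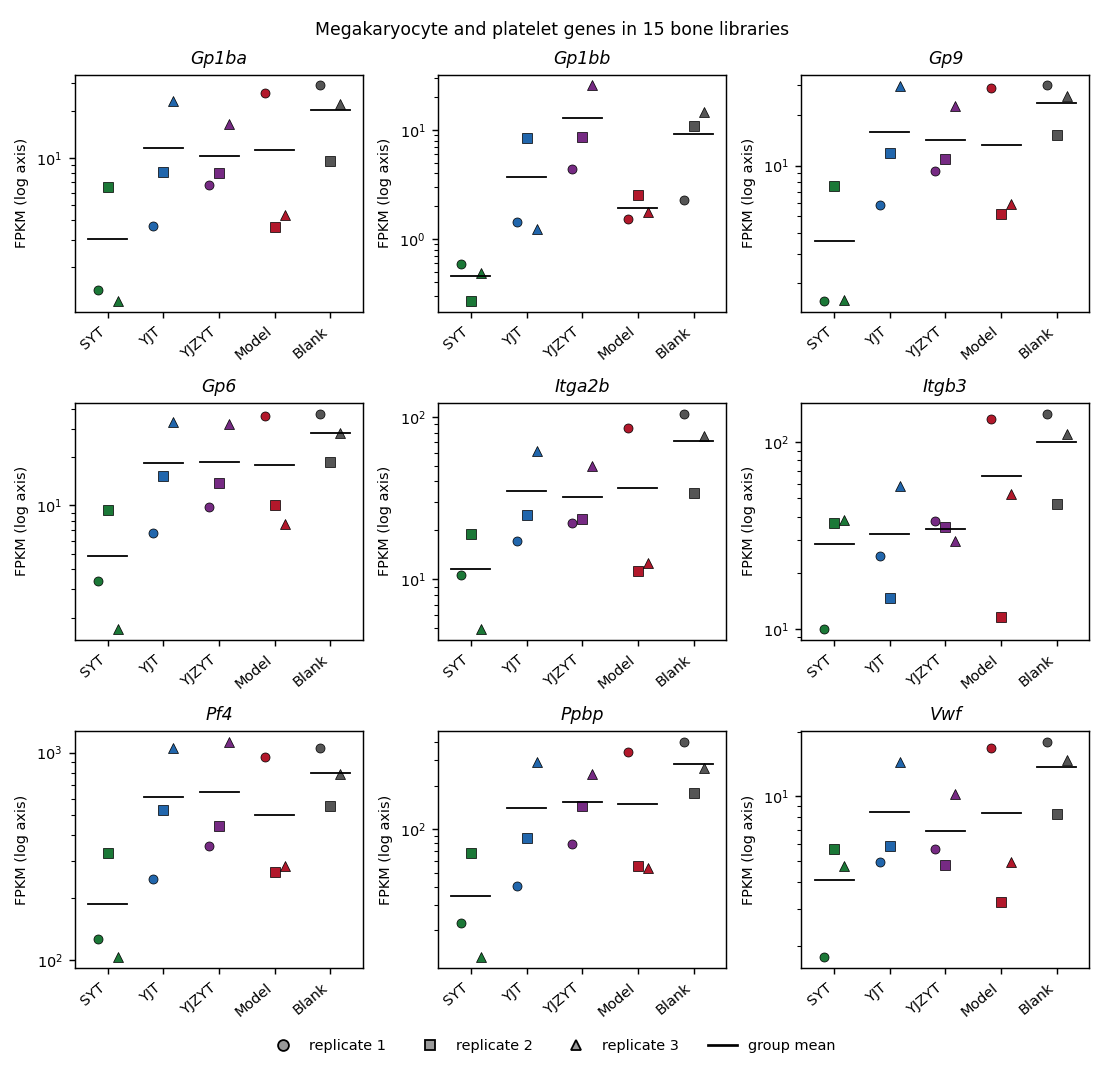
Level of each of the 9 genes in every library, in FPKM on a log axis, with 3 libraries per group (marker shape gives the replicate number) and a bar at the group mean. SYT lies below Blank for all 9 genes, the Model libraries are split between Model1 and the other 2 for most genes, and Gp1bb has a different order of libraries.

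Adding the 9 genes, Pf4 weighing most, gave 178, 481 and 170 FPKM in SYT, 350, 707 and 1560 FPKM in YJT, 530, 693 and 1557 FPKM in YJZYT, 1619, 370 and 428 FPKM in Model and 1820, 877 and 1347 FPKM in Blank. The means were 276 ± 177 FPKM in SYT, 872 ± 622 FPKM in YJT, 927 ± 551 FPKM in YJZYT, 805 ± 705 FPKM in Model and 1348 ± 472 FPKM in Blank (SD, n = 3 each). In that order of group means, YJT, YJZYT and Model differ by far less than their own spread, and SYT is the lowest and Blank the highest.

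SYT against Blank, which differ both in ovariectomy and in the SYT condition, gave the widest gap. All 9 genes were lower in SYT (45.9% of all genes were), at a median log2 fold change of -2.36, a range of -4.07 to -1.52, and 0.03 as the median over all genes tested. The receptor genes Gp1ba, Gp9 and Gp6 had log2 fold changes of -2.50 ± 0.88, -2.50 ± 0.79 and -2.31 ± 0.76 (SE, 3 libraries per group). Itga2b was at -2.36 ± 0.79 and Itgb3 at -1.58 ± 0.71. Ppbp was at -2.80 ± 0.88, Pf4 at -1.87 ± 0.65 and Vwf at -1.52 ± 0.59, and Gp1bb had the widest difference, -4.07 ± 0.99. For all 9 genes the SYT and Blank libraries did not overlap in FPKM, with SYT lower, against 13.9% of all genes tested. None of the 9 passed edgeR's quasi-likelihood test after Benjamini-Hochberg adjustment over 17657 genes (adjusted p 0.925 to 0.955), and 0% of all genes did. Unadjusted, all 9 had p under 0.05 (0.00125 to 0.0430), against 5.02% of all genes. Most of the 9 genes varied together across libraries, as described below. Counts of them, in this and every other comparison, are therefore not counts of separate observations. DESeq2 passed 1 of the 9, Gp1bb (log2 fold change -4.07, adjusted p = 0.00342), beside 0.194% of all genes.

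SYT against Model holds ovariectomy constant. All 9 genes were lower in SYT on the fitted means (46.7% of all genes were), at a median log2 fold change of -1.66, a range of -1.88 to -0.80, and 0.02 over all genes. Ppbp was at -1.88 ± 0.85, Gp1ba at -1.66 ± 0.86, Gp9 at -1.66 ± 0.77 and Gp6 at -1.66 ± 0.74 (SE). Itga2b was at -1.39 ± 0.76, Pf4 at -1.19 ± 0.64, Itgb3 at -0.98 ± 0.70 and Vwf at -0.80 ± 0.58. Only for Gp1bb, at -1.82 ± 0.92, did the libraries not overlap in FPKM, with SYT lower, while 13.9% of all genes tested did not overlap in one direction or the other. None of the 9 passed edgeR's test (adjusted p of 1 for each, 0% of all genes) or DESeq2 (0.127% of all genes), and 2 of 9, Gp6 and Ppbp, had an unadjusted p under 0.05 by edgeR, against 3.16% of all genes. The gap rested on Model1: without it the median was -0.33, with 6 genes lower and 3 higher, and Itga2b, Itgb3 and Vwf were then at 0.21, 0.08 and 0.24.

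Model against Blank sets ovariectomized rats against rats labelled as without treatment. All 9 genes were lower in Model (48.3% of all genes were), at a median log2 fold change of -0.84 (range -2.25 to -0.61) beside 0.02 over all genes, and the libraries overlapped for each of them, where 7.16% of all genes did not overlap and were lower. Gp1bb was at -2.25 ± 0.91, Itga2b at -0.98 ± 0.76, Ppbp at -0.92 ± 0.83, Gp1ba at -0.84 ± 0.84 and Gp9 at -0.84 ± 0.75 (SE). Vwf was at -0.72 ± 0.58, Pf4 at -0.68 ± 0.63, Gp6 at -0.65 ± 0.73 and Itgb3 at -0.61 ± 0.69. None passed edgeR's test (adjusted p 0.526 to 0.907), while 0.0227% of all genes did, none passed DESeq2 (1.68% of all genes), and only Gp1bb had an unadjusted p under 0.05 (8.19% of all genes). Model1 weighed on this result in the other direction. Without Model1 the median was -2.11, and without Model2 or Model3 it was -0.43 or -0.52.

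Against Model, YJT and YJZYT had the same split of the 9 genes, but its direction was not steady. In YJT 2 genes were lower and 7 higher (median log2 fold change 0.16, range -0.91 to 1.18), where 51.8% of all genes were lower and their median was -0.02. In YJZYT likewise 2 were lower and 7 higher (median 0.23, range -0.78 to 2.90), where 57.6% of all genes were lower and their median was -0.07. Itgb3 was the lowest in both, at -0.91 ± 0.70 in YJT and -0.78 ± 0.69 in YJZYT, and Gp1bb the highest in both, at 1.18 ± 0.88 in YJT and 2.90 ± 0.93 in YJZYT (SE). Gp1bb in YJZYT, at 4.40 to 25.8 FPKM against 1.52 to 2.54 FPKM in Model, did not overlap with Model, against 4.09% of all genes that were so separated and higher in YJZYT. All 9 genes overlapped between YJT and Model, where 13.9% of all genes did not. None of the 9 passed edgeR's test in YJT (adjusted p at least 0.828) or in YJZYT (at least 0.638), and 0% of all genes did in each, nor did any pass DESeq2 (0.512% of all genes in YJT and 0.357% in YJZYT). At an unadjusted p under 0.05 edgeR gave 0 of 9 genes in YJT (6.58% of all genes) and 1, Gp1bb, in YJZYT (7.29%). These medians changed sign with single libraries. Without YJT3 the YJT median was -0.43 and without YJZYT3 the YJZYT median was -0.49, with 8 genes lower and 1 higher in each. Without Model2 the YJT and YJZYT medians were -0.23 and -0.15, and without Model3 they were -0.15 and -0.11. Without Model1 they were 1.31 and 1.57, with all 9 genes higher in both. The comparisons share the Model libraries, so they are not separate evidence.

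**Figure D2:**
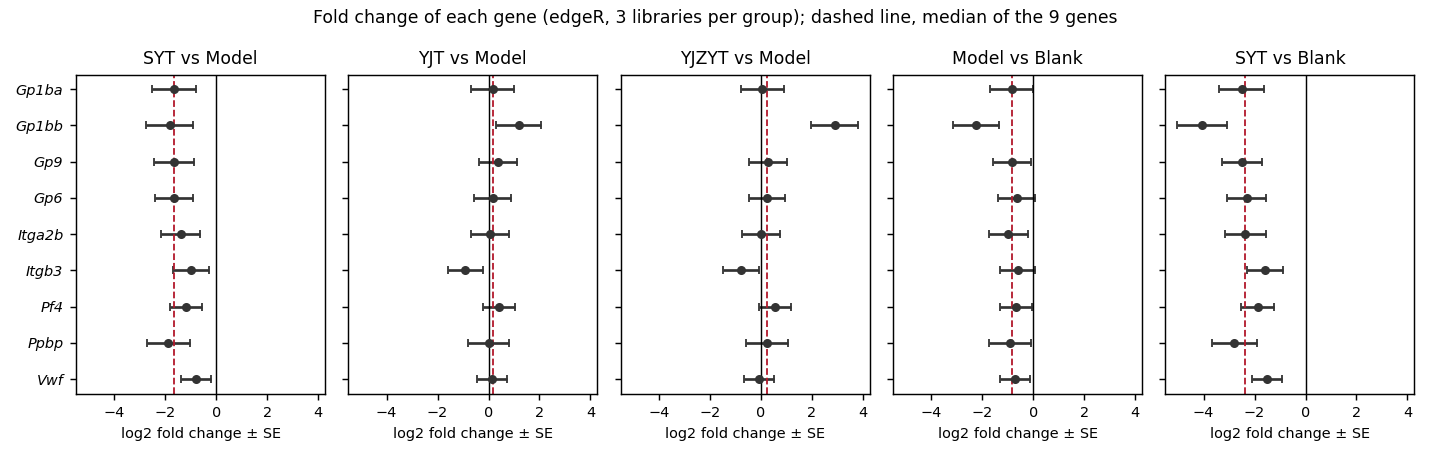
Log2 fold change of each gene in 5 comparisons, with bars of 1 SE from edgeR (3 libraries per group) and a dashed line at the median of the 9 genes. All 9 genes lie left of 0 in SYT vs Model, Model vs Blank and SYT vs Blank, while YJT vs Model and YJZYT vs Model scatter about 0 except for Itgb3 (lower) and Gp1bb (higher).

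YJT and YJZYT were also set against Blank. In YJT all 9 genes were lower (median log2 fold change -0.68, range -1.51 to -0.27), where 52.2% of all genes were. In YJZYT 8 were lower and 1, Gp1bb, was higher (median -0.68, range -1.38 to 0.65), where 50.5% of all genes were lower. Itgb3 was the lowest gene in each, at -1.51 ± 0.71 in YJT and -1.38 ± 0.70 in YJZYT (SE), and in YJZYT, at 29.5 to 38.0 FPKM, its libraries lay below all Blank libraries, at 46.4 to 142.6 FPKM. That made 1 of 9 genes apart, against 16.5% of all genes that were so separated and lower in YJZYT. All 9 genes overlapped between YJT and Blank, where 18.4% of all genes did not. None of the 9 passed edgeR's test (0% of all genes in YJT, 0.374% in YJZYT) or DESeq2 (0.623% in YJT, 3.96% in YJZYT) in either comparison, and 0 of 9 had an unadjusted p under 0.05 by edgeR in each (8.30% and 11.9% of all genes). Without YJT3 and YJZYT3 together, an alternative chosen after seeing the data, the medians were -1.14 in YJT and -1.21 in YJZYT.

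Among the 3 labelled conditions, the 9 genes were all lower in SYT than in YJT (median log2 fold change -1.82, range -3.01 to -0.07), as were 48.6% of all genes. They were also all lower in SYT than in YJZYT (median -1.74, range -4.72 to -0.20), as were 45.6% of all genes. Against YJZYT, Pf4 was at -1.74 ± 0.65 and Ppbp at -2.12 ± 0.86, and against YJT, Gp9 was at -2.03 ± 0.78 and Gp6 at -1.82 ± 0.75 (SE). The SYT libraries were below all YJZYT libraries for 7 of 9 genes in FPKM, against 9.64% of all genes. In TMM-scaled counts this held for 5 of 9, and the share of all genes on that scale was not computed. Between SYT and YJT 1 gene, Gp1bb, was apart, against 5.27% of all genes. None passed edgeR's test in SYT against YJT (adjusted p 0.931 to 0.988) or SYT against YJZYT (0.320 to 0.950), with 0% of all genes passing in both, while 5 of 9 had an unadjusted p under 0.05 in each (3.05% of all genes against YJT and 9.10% against YJZYT). DESeq2 passed none against YJT (0.0312% of all genes) and 1, Gp1bb, against YJZYT (log2 fold change -4.74, adjusted p = 4.65e-05, 1.50% of all genes). Itgb3 was near 0 in both, with 9.99 to 38.5 FPKM in SYT against 14.6 to 58.1 FPKM in YJT and 29.5 to 38.0 FPKM in YJZYT. Without YJT3 and YJZYT3 together the medians were -1.02 against YJT and -1.17 against YJZYT. YJT against YJZYT gave 5 genes lower and 4 higher (49.1% of all genes lower), with a median of -0.08. Its direction turned with single libraries: without YJT3 all 9 were lower (median -0.67), without YJZYT3 2 were lower and 7 higher (0.61), without YJT1 1 was lower and 8 higher (0.31), and without YJT2 the median was 0.17. Without YJT3 and YJZYT3 together it was -0.04. With all libraries the groups overlapped for all 9 genes (10.1% of all genes did not), and none passed edgeR's test (0% of all genes, and 0 of 9 against 6.39% at an unadjusted p under 0.05) or DESeq2 (2.02%).

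Gp1bb needs care because of where it lies. Its span (chr11:86520992-86522169, plus) shares 1177 of its 1178 bases with the end of Septin5 (chr11:86512797-86522168, plus), a gene of a filament-forming protein also made in platelets, on the same strand. Its counts are uncertain, because the rule by which reads were shared between the 2 entries is not stated in the sources used here. Gp1bb held from 0.338% of the counts of both entries together (SYT2) to 19.3% (YJZYT3). Septin5 itself was at 18.3, 20.8 and 16.7 FPKM in SYT, 21.2, 15.8 and 27.6 FPKM in YJZYT, and 36.2, 22.7 and 24.0 FPKM in Blank, so that SYT overlapped with YJZYT and lay below Blank. Septin5 was at 23.7, 21.6 and 43.3 FPKM in YJT and 41.5, 18.9 and 20.1 FPKM in Model. Its highest libraries, YJT3 and Model1, were the lowest of their groups for Gp1bb, at 1.24 and 1.52 FPKM. SYT2 and Blank1 were likewise the highest of their groups for Septin5 and the lowest for Gp1bb, while YJZYT3 was the highest for both. Gp1bb did not follow Septin5 over 15 libraries (r = -0.02 and rho = -0.00, adjusted permutation p = 0.94 and 1.0). Between these 2 entries r was -0.25 within groups and -0.23 without the 2 libraries farthest from the median Gp1bb level. Within groups Gp1bb did not follow the other genes of its complex either. Gp9 did vary with Septin5 (r = 0.66 and rho = 0.73, adjusted permutation p = 0.017 and 0.0062), with r of 0.77 within groups. The part of read sharing in the Gp1bb values was not tested.

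Ratios within a library set one gene against another. Itgb3 and Vwf are also made by other cells, so their ratios can differ with how much of the lineage a library held. The ratio of Gp1ba to Gp9, 2 chains of one receptor, stayed between 0.630 and 0.972 in all 15 libraries (mean 0.774 ± 0.104, SD) while each gene ranged over 18.9-fold or more. Gp6 to Gp9 ran from 1.05 to 2.13. The ratio of Ppbp to Pf4 was 0.170 ± 0.041 in SYT, 0.202 ± 0.064 in YJT, 0.253 ± 0.063 in YJZYT, 0.251 ± 0.094 in Model and 0.346 ± 0.032 in Blank (SD, n = 3 each). For that ratio SYT, at 0.125 to 0.207, did not overlap with Blank, at 0.323 to 0.383, and Model1 alone of the Model libraries (0.359) was at the Blank level.

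Itgb3 to Itga2b was steady in Blank (1.40 ± 0.058) and uneven elsewhere: 3.55 ± 3.69 in SYT, 0.982 ± 0.421 in YJT, 1.26 ± 0.592 in YJZYT and 2.26 ± 1.70 in Model (SD, n = 3 each). Its extremes were 7.76 in SYT3 and 0.584 in YJT2. Vwf to Gp9 was likewise 1.61 ± 1.17 in SYT, with 2.94 in SYT3, against 0.573 ± 0.028 in Blank (SD, n = 3 each). SYT3 is the library with the lowest score of the 9 genes (-2.34). In the plot of list levels it had the highest endothelial and osteoclast scores (0.86 and 1.28). It also had the highest Col1a1, 10571 FPKM. The part of other cell types in these ratios was not tested. Gp1bb to Gp9 ranged most, from 0.0358 in SYT2 to 1.15 in YJZYT3.

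**Figure D3:**
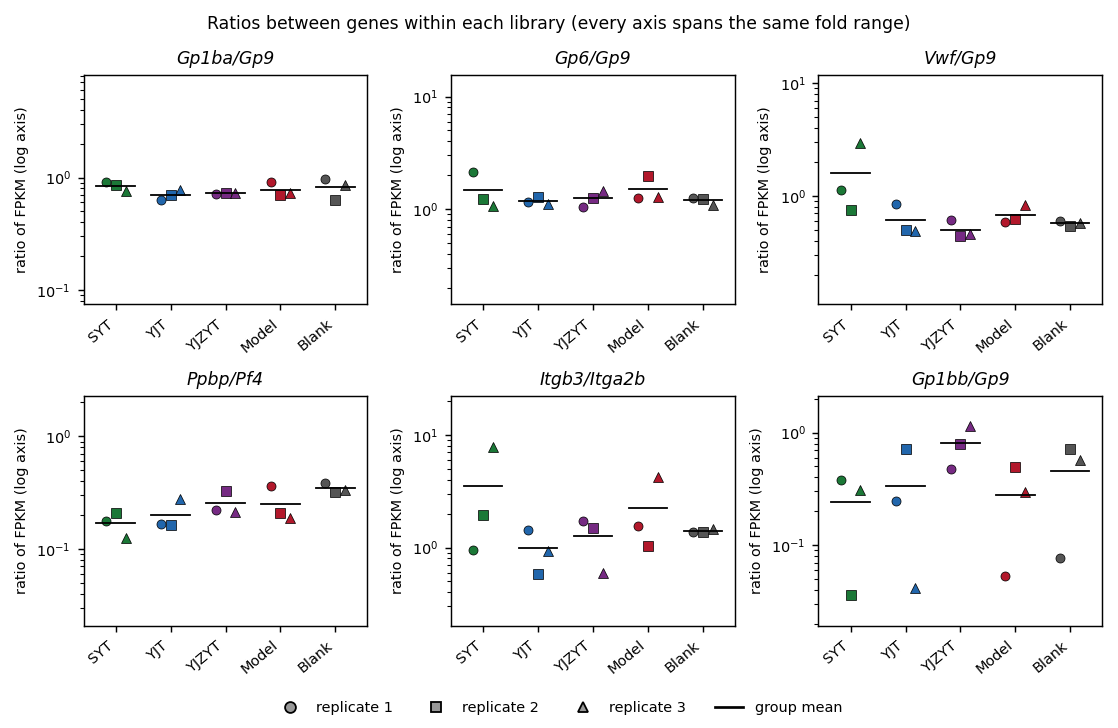
Ratio of the FPKM of 2 genes within each library, on log axes that all span the same fold range, with marker shape for the replicate number and a bar at the group mean. Gp1ba/Gp9 and Gp6/Gp9 are nearly level across the 15 libraries, Ppbp/Pf4 is lowest in SYT and highest in Blank, and Itgb3/Itga2b, Vwf/Gp9 and Gp1bb/Gp9 each have libraries far from the rest.

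Across the 15 libraries, Gp1ba, Gp9, Gp6, Itga2b, Pf4 and Ppbp varied as a block. Their 15 pairs had Pearson's r of 0.94 to 0.99 on log2 CPM, counts scaled to library size (Spearman's rho 0.89 to 0.98). After Benjamini-Hochberg adjustment over 74 relations, permutation p was 3.5e-05 for each r, from a raw 1.0e-05 that is the smallest 100000 permutations can give, and at most 1.1e-04 for rho. With group means removed r was 0.92 to 0.99, and without the 2 libraries farthest from the median it was 0.91 to 0.99. The block therefore held among replicates pooled over the 5 groups, and neither single groups nor group means were correlated alone. Vwf was close to it, with r of 0.80 to 0.90 (rho 0.83 to 0.92, adjusted permutation p at most 9.2e-04 for r and 5.5e-04 for rho), 0.72 to 0.86 within groups and 0.90 to 0.96 without the 2 farthest libraries.

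Itgb3 was looser, with r of 0.50 to 0.66 against the same 6 genes (rho 0.46 to 0.67, adjusted permutation p 0.017 to 0.081 for r and at most 0.12 for rho), 0.37 to 0.63 within groups and 0.43 to 0.72 without the 2 farthest libraries. Its closest member was Vwf, with r = 0.82 and rho = 0.71 (adjusted permutation p = 3.7e-04 and 0.0097), 0.83 within groups and 0.75 without the 2 farthest. Gp1bb had r of 0.43 to 0.56 with the 6 genes (rho 0.36 to 0.51, adjusted permutation p 0.054 to 0.14 for r and at most 0.23 for rho), but -0.16 to 0.03 within groups and 0.22 to 0.51 without the 2 farthest. Genes of the same libraries share depth and composition, which these values include.

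**Figure D4:**
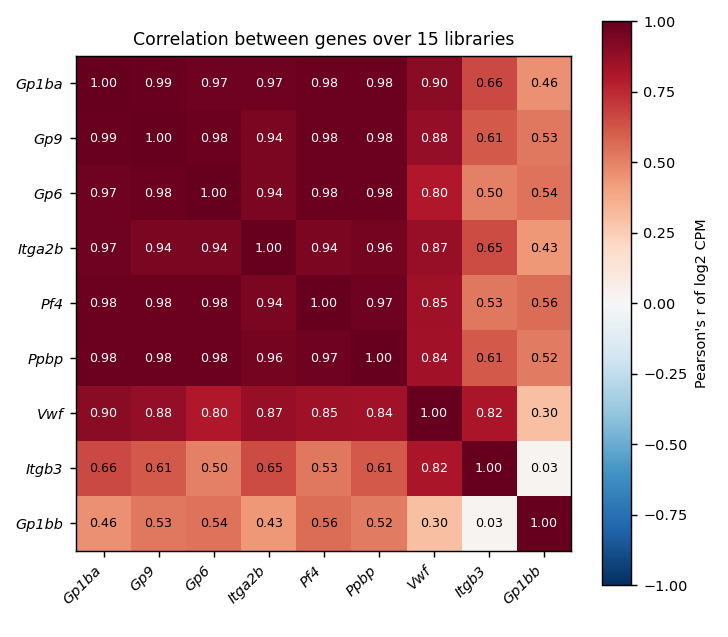
Pearson's r between the log2 CPM of each pair of genes over 15 libraries, on a colour scale from -1 to 1. The 6 genes at the top left form a block at 0.94 or more, Vwf adjoins it at 0.80 to 0.90, and Itgb3 and Gp1bb have the lowest values.

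The genes most like the group were found by Pearson's r of log2 CPM with the group's score, the median over the 9 genes of the deviation from the 15-library mean, among 11580 genes with a symbol and a mean of at least 1 FPKM. F2rl3, a thrombin receptor of platelets, and Gnaz, a G protein subunit found in platelets, were at 0.99. Tubb1, the beta tubulin of platelets, Cd226, an adhesion receptor, and Gp5, a further chain of the von Willebrand receptor complex, were at 0.98. Ly6g6f, Kcnab1 and Serpinb2 were also at 0.98, Daam1 at 0.97, and an entry with the provisional symbol NEWGENE_2724 at 0.99. For single genes, Selp, the adhesion molecule P-selectin of platelets and endothelium, was nearest to Itga2b (r = 0.99), Gucy1b1, a subunit of the nitric oxide receptor, to Vwf (0.97), Nr2c2, a nuclear receptor, to Itgb3 (0.96) and Wdr31 to Gp1bb (0.79). These are the largest of many values over 15 libraries and are given as a description, with no test.

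Of 43 further megakaryocyte and platelet genes listed for this comparison, 42 were matched. In SYT against Blank, 39 were lower and 3 higher, at a median log2 fold change of -1.12, and 29 did not overlap, all lower in SYT, against 13.9% of all genes. In SYT against Model 35 were lower and 7 higher (median -0.70), in Model against Blank 36 lower and 6 higher (median -0.58), and in YJT and YJZYT against Model 20 were lower and 22 higher in each (medians 0.02 and 0.01). None of the 42 passed edgeR's adjusted test in any of these comparisons, the share of all genes being as given for each above. Score for score, this list followed the block: r was 0.95 to 0.99 for its 6 genes (rho 0.90 to 0.98, adjusted permutation p 3.5e-05 for r and at most 9.2e-05 for rho, 0.93 to 0.99 within groups, 0.94 to 0.99 without the 2 farthest libraries). For Vwf r was 0.87 and rho 0.92 (adjusted permutation p 6.4e-05 and 3.9e-05), for Itgb3 0.62 and 0.59 (0.026 and 0.045), and for Gp1bb 0.42 and 0.35 (0.15 and 0.26).

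Several single genes of that list were read by library. Tubb1 was at 3.25, 8.78 and 1.68 FPKM in SYT, against 57.4, 17.0 and 42.4 FPKM in Blank (log2 fold change -2.84 ± 0.92). Gp5 was at 0.708, 3.75 and 0.717 FPKM in SYT, against 19.9, 5.74 and 13.3 FPKM in Blank (-2.68 ± 0.92). For both genes the groups did not overlap, and the same held for Selp, at 2.26, 3.34 and 1.04 FPKM in SYT against 13.97, 5.94 and 12.9 FPKM in Blank (-2.03 ± 0.66), with an adjusted p of 0.925 by edgeR for each of the 3. Clec1b, P2ry12, Treml1, F13a1, Thbs1 and Itga2, which code for platelet receptors, a clotting factor and adhesion proteins, were also lower in every SYT than in every Blank library.

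Gata1, a master regulator of megakaryocytes and red cells, was at 10.4, 26.1 and 5.56 FPKM in SYT, against 26.4, 14.4 and 19.9 FPKM in Blank. Gfi1b, a repressor of transcription that acts in the same 2 lineages, was at 10.3, 36.5 and 5.79 FPKM in SYT, against 30.1, 11.6 and 26.3 FPKM in Blank. SYT2 exceeded or nearly equalled the highest Blank library for both, and the groups overlapped. Nfe2, which drives platelet release, was at 87.7, 100 and 26.1 FPKM in SYT, against 102, 70.1 and 80.2 FPKM in Blank. Fli1, an ETS factor, was at 34.0, 23.7 and 20.1 FPKM in SYT, against 43.5, 25.5 and 39.3 FPKM in Blank. All 4 are also made by other blood or vessel cells, so that their levels in bone are not those of megakaryocytes alone.

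Markers of other cell types were read beside the 9 genes, and no gene of the erythroid, osteoclast, endothelial or skeletal muscle lists was at 0 in any library. The erythroid list (14 of 15 genes matched) was at a summed 38984 to 129687 FPKM in SYT, 44101 to 101954 FPKM in Model and 89193 to 159591 FPKM in Blank. Its score followed the 6 genes of the block, with r of 0.66 to 0.72 (rho 0.58 to 0.67, adjusted permutation p at most 0.017 for r and 0.049 for rho), 0.82 to 0.87 within groups and 0.48 to 0.60 without the 2 farthest libraries. By group, however, 14 of 14 erythroid genes were higher in SYT than in Model (median log2 fold change 0.57), the reverse of the 9 genes, and 14 of 14 were lower in Model than in Blank (median -0.63). In SYT against Blank 11 were lower and 3 higher (median -0.12), in the same direction as the 9 genes. Against Model, 14 of 14 were higher in YJT (median 0.93) and in YJZYT (median 1.37). In YJZYT 10 of the 14 did not overlap with Model and were higher, against 4.09% of all genes, and in YJT 0 did not overlap. None passed edgeR's test in these comparisons. The osteoclast list (11 genes) was at a summed 1260 to 4342 FPKM in SYT, 565 to 2458 FPKM in YJT, 505 to 3147 FPKM in YJZYT, 2316 to 3265 FPKM in Model and 1208 to 3339 FPKM in Blank. Its score had r of -0.65 to -0.52 with the 6 genes (adjusted permutation p 0.017 to 0.067, rho -0.61 to -0.49 with p at most 0.098), -0.75 to -0.59 within groups and -0.72 to -0.43 without the 2 farthest libraries, and r of 0.04 with Itgb3 (rho 0.07, adjusted permutation p 0.91 and 0.85). It was lowest in YJT3 and YJZYT3, at -1.99 and -1.77, and in each of these 8 of the 9 genes were above their 15-library mean.

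The endothelial list (15 of 16 genes matched) was at a summed 58.4 to 158 FPKM in SYT, 80.0 to 116 FPKM in Model and 126 to 155 FPKM in Blank. In Model against Blank 14 of its 15 genes were lower (median log2 fold change -0.64), and in SYT against Model 3 were lower and 12 higher (median 0.31). In YJT against Blank 14 were lower and 1 higher (median -0.61). In YJZYT against Blank 15 of its 15 genes were lower (median -1.11), and 14 did not overlap, against 16.5% of all genes. None of its genes passed edgeR's test in any of these comparisons. Its score had r of -0.26 to -0.09 with the 6 genes of the block (rho -0.24 to 0.02, adjusted permutation p at least 0.41 for r and 0.47 for rho) and of -0.57 to -0.30 within groups. With Vwf r was 0.20 and rho 0.23 (adjusted permutation p 0.53 and 0.48), and with Itgb3 0.50 and 0.57 (0.079 and 0.05). Skeletal muscle genes, which mark muscle fibres, had a lower summed level in every SYT and Model library than in any Blank library. The 8 genes summed to 369 to 2147 FPKM in SYT, 169 to 511 FPKM in Model and 2716 to 4107 FPKM in Blank, and 8 of 8 were lower in each of SYT and Model than in Blank, none of them passing edgeR's test. In SYT against Blank the median log2 fold change was -0.20 for the endothelial list (13 lower, 2 higher) and 0.38 for the osteoclast list (3 lower, 8 higher). There the lists for monocytes and macrophages, neutrophils, mast cells and basophils, B cells and osteoblasts had median log2 fold changes of -0.45, 0.41, 0.10, 0.16 and 0.43, beside -2.36 for the 9 genes, with none of their genes passing edgeR's test. These medians hide differences between genes of a list and between libraries of a group. Every SYT library lay below every Blank library for 5 of 9 monocyte and macrophage genes, 3 of 10 neutrophil genes and 1 of 6 mast cell and basophil genes. The same held for 0 of 8 B cell and 0 of 8 osteoblast genes, against 13.9% of all genes. SYT3, lowest for the 9 genes (-2.34), also had the lowest neutrophil, erythroid, and mast cell and basophil scores (-2.18, -1.41 and -0.94). Its osteoblast, osteoclast and endothelial scores were the highest (1.76, 1.28 and 0.86). SYT1, next lowest for the 9 genes (-1.66), had the highest neutrophil and mast cell and basophil scores (1.03 and 0.93). The part of these cell types in the differences of the 9 genes was not tested.

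**Figure D5:**
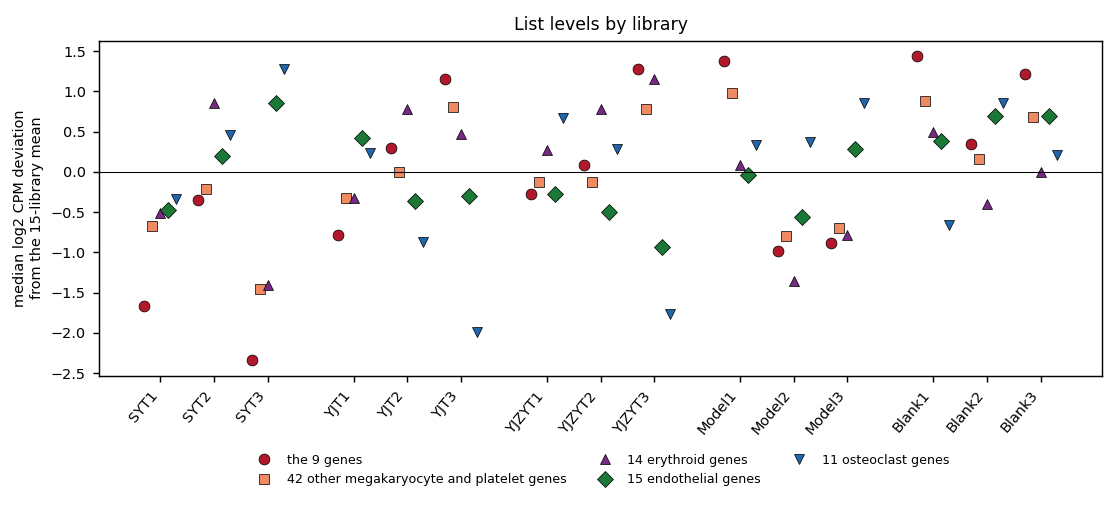
Score of 5 gene lists in each library, the median over the list's genes of the log2 CPM minus the 15-library mean. The 9 genes and the 42 further megakaryocyte and platelet genes move together, from -2.34 for the 9 genes in SYT3 to 1.44 in Blank1, while the osteoclast list is lowest in YJT3 and YJZYT3.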

How the data were processed

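Bone of female Sprague-Dawley rats was measured in 15 libraries, 3 per group, with groups and replicate numbers taken from the titles and the condition label. According to the labels' protocols, poly(A) RNA was selected, the second strand was marked with dUTP, and adapters with molecular identifiers were ligated. Named in the submitters' processing notes, without saying what each was used for, are HISAT2 2.0.4, StringTie 1.3.4d, cutadapt 1.9, UMI-tools, edgeR and DESeq2. Genome build, counting step and strand setting: not given in the sources used here. Per the file headers, every gene has a count (whole numbers) and an FPKM in each library, and both were used as deposited by the authors. Column totals ran from 64472700 to 74255667 counts.

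Counts were tested with edgeR 4.0.16 in R 4.3.3: filterByExpr (17657 genes tested, 4811 left out), TMM factors, 1 robust quasi-likelihood fit across the 15 libraries, 1 mean per group (10 residual degrees of freedom, biological coefficient of variation 42.7%), 10 two-sided contrasts, and Benjamini-Hochberg adjustment over all genes at 0.05. A standard error is the log2 fold change over the square root of its F statistic. Correlations used log2 CPM (scaled counts) with a prior count of 2 and 100000 permutations. Alternatives were RLE factors, no scaling factors, no low-count filter, DESeq2 1.42.0, limma 3.58.1 on log2(FPKM + 1) and log2(FPKM + 0.1), the 6 libraries compared alone, the replicate number as a block, and each library left out. Chosen after seeing the data were the fit without YJT3 and YJZYT3 and the sum of Gp1bb and Septin5; Gp1bb made up at most 19.3% of that sum, which therefore cannot speak of Gp1bb and is not used. The fit was run on simulated data in which each gene was drawn independently. That run cannot speak of genes that vary together, and its outcome is not reported here.

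The 9 genes and the gene lists were chosen with earlier results of these data known. By rule, the 9 genes and 14 further genes of the lineage could be named whatever their p, with others only if past the threshold; the genes most like the group are the 10 with the largest r, and for a single gene the 3 with the largest r, of which the nearest is given for 4 genes. A result for 1 of the 14 is not reported here. Septin5 and Col1a1 were named after their values were seen.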

Additional observations from a re-analysis of the deposited data

Results flagged for a closer look

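Gp1bb was the only one of the 9 genes for which all libraries of one condition lay under every Model library and all libraries of another lay over them. It was at 0.271 to 0.595 FPKM in SYT and 4.40 to 25.8 FPKM in YJZYT, with Model at 1.52 to 2.54 FPKM, and SYT against YJZYT gave a log2 fold change of -4.72 ± 1.02 (SE). This difference did not pass edgeR's test (adjusted p = 0.320) and passed DESeq2 (-4.74, adjusted p = 4.65e-05). Gp1bb lies almost wholly within the Septin5 entry, and the sources used here do not state how reads were shared between the 2 entries.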

How the results depend on the processing

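No count of the 9 genes past the threshold differed from 0 in any of the 10 comparisons under any edgeR or limma alternative, and DESeq2 gave 1, Gp1bb, in SYT against Blank (-4.07, adjusted p = 0.00342) and 1, also Gp1bb, in SYT against YJZYT (-4.74, adjusted p = 4.65e-05). Leaving out single libraries moved the median log2 fold change to between -1.86 and -0.33 in SYT against Model, -0.43 and 1.31 in YJT against Model, -0.49 and 1.57 in YJZYT against Model, -2.11 and -0.43 in Model against Blank, -3.12 and -1.99 in SYT against Blank, -1.14 and -0.32 in YJT against Blank, -1.21 and -0.35 in YJZYT against Blank, -2.63 and -1.02 in SYT against YJT, -2.72 and -1.17 in SYT against YJZYT and -0.67 and 0.61 in YJT against YJZYT. All 9 genes stayed lower in SYT against Blank and in Model against Blank with any 1 library left out, and in each of the other 8 comparisons at least 1 gene changed sign. Among the genes whose own fold change is given for a comparison, the sign turned in SYT against Model without Model1 for Itga2b (-1.86 to 0.21), Itgb3 (-1.47 to 0.08) and Vwf (-1.18 to 0.24), in YJT (-1.51 to 0.17) and YJZYT (-1.27 to 0.29) against Model without Model1 for Itgb3, and in YJT against Model without YJT2 for Gp1bb (-0.47 to 1.63), each range being over single libraries left out. The cause was not tested. The limits set by depth and by the number of libraries were not compared. Same-numbered libraries had a median r near 0 (-0.018 over 30 pairs, range -0.418 to 0.4, 9 over 0.1). Single pairs did deviate together, with YJT1 and YJZYT1, and YJT3 and YJZYT3, at 0.4. With the replicate number as a block none of the 9 genes passed. The medians were then -1.50 in SYT against Model, -0.81 in Model against Blank and -2.28 in SYT against Blank.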
